A study of Rattus norvegicus with 6 samples.

Results

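The genes described here encode parts of haemoglobin and of the red blood cell, measured in kidney RNA of diabetic rats. They were proposed as a list of 4 symbols, Hba-a1, Hbb-b1, Alas2 and Epb42, and the list was chosen on the signals of SJG-treated and diabetic kidneys themselves. The brightest transcript cluster (the set of probes of one transcript on the array) annotated to a single gene stood for each of them. On this rule 3 of the 4 genes were measured, out of 18166 genes in all. Alas2, the erythroid enzyme that starts haem synthesis, was not analysed here because no transcript cluster was annotated to it. Because this contrast chose the members, their differences between the groups are given as a description without a test.

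Both groups were male Sprague Dawley rats labelled 17 weeks of age, 3 arrays each, and both carried diabetes induced by streptozotocin, a toxin of the insulin-producing beta cells. The SJG group received Shenqi Jiangtang Granule, a mixture of herbal extracts, and the diabetic group received saline. The study's text describes this contrast for its high-dose group, and the labels give neither the dose nor the length of treatment. Nondiabetic control rats were not analysed here. The labels name the tissue as kidney and the methods as kidney cortex, and flushing of the blood from the organ is not described in the sources used here. The labels do not tie the arrays to named animals, so the spread between arrays may be partly technical. Each title also holds a bracketed code whose number is shared within a group, and its meaning is not explained, so treatment and whatever the number stands for cannot be told apart.

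Haemoglobin is a tetramer of alpha and beta chains that each hold a haem group, and it fills the mature red cell. Mammalian red cells lose their nucleus, and the youngest of them in the blood, the reticulocytes, still contain globin mRNA. A kidney sample holds blood in its vessels, and the kidney is also the organ that makes erythropoietin, the hormone that drives red cell formation.

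The haemoglobin genes were higher in the SJG-treated kidneys, and the red cell membrane gene was close to the same in both groups. Hba-a1, which encodes an alpha chain, had log2 signals of 7.44, 7.76 and 7.04 in SJG arrays 1 to 3, against 5.44, 6.56 and 6.63 in diabetic arrays 1 to 3. All SJG arrays lay above all diabetic arrays, with 0.409 between the lowest SJG and the highest diabetic array. Its mean was 7.41 ± 0.36 with SJG and 6.21 ± 0.67 in the diabetic kidneys (SD, n = 3 each). The log2 difference was 1.202 with a standard error of 0.308, a 2.30-fold higher signal with SJG.

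Hbb-b1, which encodes a beta chain, had log2 signals of 8.87, 10.24 and 9.13 in SJG arrays 1 to 3, against 6.89, 8.30 and 8.86 in diabetic arrays 1 to 3. The groups did not overlap, but SJG replicate 1 and diabetic replicate 3 were 0.009 apart. The mean of Hbb-b1 was 9.41 ± 0.73 with SJG and 8.02 ± 1.01 in the diabetic kidneys (SD, n = 3 each). The log2 difference was 1.39 with a standard error of 0.463, or 2.63-fold. The diabetic arrays alone spanned 1.97 and the SJG arrays 1.37, so the difference between the groups was smaller than the spread within the diabetic group. For Hba-a1 the spans were 0.718 within SJG and 1.19 within the diabetic group, against the group difference of 1.202.

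Epb42 encodes protein 4.2, which links the anion exchanger of the red cell membrane to the spectrin skeleton. Its log2 signals were 4.15, 4.58 and 4.43 in SJG arrays 1 to 3, against 4.28, 4.18 and 4.31 in diabetic arrays 1 to 3, and the groups overlapped. The mean was 4.38 ± 0.22 with SJG and 4.26 ± 0.07 in the diabetic kidneys (SD, n = 3 each), a log2 difference of 0.13 with a standard error of 0.176. The gene was dim. Its mean signal stood at the 27.2nd percentile of all genes, while Hba-a1 stood at the 70.9th and Hbb-b1 at the 93.5th. The arrays give no detection call, so it is not known whether Epb42 was above background.

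**Figure D1:**
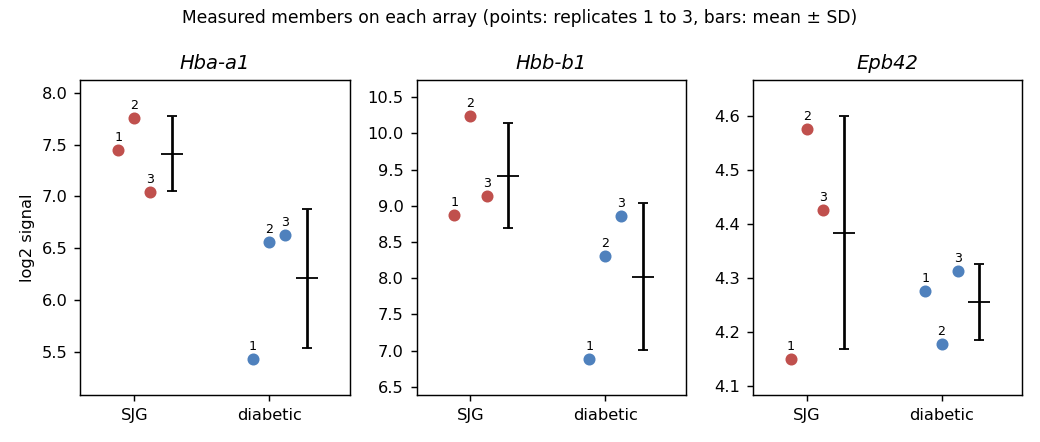
Log2 signal of Hba-a1, Hbb-b1 and Epb42 in SJG-treated and diabetic kidneys, with 1 point per array (the digit is the replicate number) and a bar for the mean and SD of 3 arrays. The groups are apart for Hba-a1, nearly touch for Hbb-b1 at 8.87 and 8.86, and overlap for Epb42.

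Among the 18166 genes, the increases of Hbb-b1 and Hba-a1 ranked number 6 and number 14. Both genes also varied widely within the groups. The pooled within-group SD of Hbb-b1 was at the 99.6th percentile of all genes and that of Hba-a1 at the 96.6th, whereas Epb42 was at the 21.4th. The arrays had nearly the same order for both haemoglobin genes. SJG replicate 2 was the highest for each, and diabetic replicates 3, 2 and 1 followed the SJG arrays in that order. Over the 6 arrays Hba-a1 and Hbb-b1 had a Pearson r of 0.94, and Epb42 had an r of 0.39 with Hba-a1 and 0.62 with Hbb-b1. These values include the group difference that chose the genes and are given without a p-value. In a whole tissue sample, more red cells and more globin mRNA per red cell cannot be told apart. Which cells held the globin mRNA was not tested.

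The study set 2 limits, a fold change above 1.5 and an unadjusted p below 0.05. At these limits 3.11% of all genes passed in limma, 0.991% being higher and 2.12% lower with SJG, and 5.2% of all genes had every SJG array above every diabetic array. Hba-a1 and Hbb-b1 are in both of the higher sets, and since the list was chosen on this contrast, that is no test. Epb42 is in neither set. With each array centred on its median, 264 genes were higher and 319 lower, against 180 higher and 385 lower without centring. Adjusted by Benjamini-Hochberg for the 18166 genes, limma gave 0 calls at 0.05, where 1133 genes were below 0.05 before adjustment. An unmoderated equal-variance comparison gave 2 adjusted calls.

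Some genes of the globin clusters have closely similar sequence around their start, and others do not. The 300-base windows around the start sites (250 bases before and 50 after, RefSeq, GRCr8) of Hbb-b1 and its neighbours Hbbl1, Hbb-bs and Hbb-b2 were 96.4%, 94.7% and 97.7% identical, and those of Hba-a1 and Hba-a2 96.0%. Hbb-b1 and Hbb were 65.0% identical there, and Hba-a1 and Hba-a3 70.7%. These windows are not the probed transcripts, and how far the array separates the genes was not tested. The windows of Hba-a1 and Hbb-b1 were 51.9% identical, close to the 52.4% of Hba-a1 and Epb42, which are unrelated genes. All 4 listed genes had an entry in the RefSeq promoter table. Shown are the windows of the measured genes and of Hba-a3, another alpha chain gene whose signal was also higher, all on the minus strand and written 5′ to 3′. Hba-a1 is at chr10:15842531-15842830, Hba-a3 at chr10:15816894-15817193, Hbb-b1 at chr1:167643471-167643770 and Epb42 at chr3:128451634-128451933. Capitals mark matches on either strand to GATAA (the core of GATA factor sites), CACCC (the core of sites of Kruppel-like factors), ATATAAA (a form of the TATA promoter element) or CCAAT (the box of that name). No matches overlapped.
Hba-a1: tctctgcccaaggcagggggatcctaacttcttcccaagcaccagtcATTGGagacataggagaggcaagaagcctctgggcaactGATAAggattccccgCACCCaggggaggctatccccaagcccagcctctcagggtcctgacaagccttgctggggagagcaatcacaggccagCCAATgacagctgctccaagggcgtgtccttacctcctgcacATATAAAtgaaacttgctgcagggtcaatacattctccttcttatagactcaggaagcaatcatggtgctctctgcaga
Hba-a3: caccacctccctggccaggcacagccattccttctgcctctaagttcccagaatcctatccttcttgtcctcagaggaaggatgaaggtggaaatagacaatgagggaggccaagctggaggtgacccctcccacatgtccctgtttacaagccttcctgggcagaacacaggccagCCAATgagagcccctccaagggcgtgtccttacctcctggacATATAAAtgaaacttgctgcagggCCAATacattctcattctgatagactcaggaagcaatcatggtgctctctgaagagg
Hbb-b1: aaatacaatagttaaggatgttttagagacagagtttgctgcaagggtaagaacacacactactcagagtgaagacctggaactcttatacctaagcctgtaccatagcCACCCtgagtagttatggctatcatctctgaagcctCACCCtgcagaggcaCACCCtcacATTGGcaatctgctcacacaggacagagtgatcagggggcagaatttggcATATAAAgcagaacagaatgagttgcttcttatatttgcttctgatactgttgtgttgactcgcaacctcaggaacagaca
Epb42: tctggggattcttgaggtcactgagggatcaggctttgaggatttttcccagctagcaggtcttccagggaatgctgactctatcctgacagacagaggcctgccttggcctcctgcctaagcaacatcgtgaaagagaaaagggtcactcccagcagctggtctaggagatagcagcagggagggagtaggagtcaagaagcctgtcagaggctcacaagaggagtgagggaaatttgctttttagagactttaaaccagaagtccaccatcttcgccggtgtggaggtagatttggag

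The globin windows each held ATATAAA, with its first base 29 bases before the start in Hba-a1 and 31 before it in Hba-a3 and Hbb-b1. Of 33469 windows of the same length, 4.96% held these letters. CCAAT, found in 37.5% of windows, was present 2 times in Hba-a1, 2 times in Hba-a3 and 1 time in Hbb-b1. CACCC, found in 54.9% of windows, was present 3 times in Hbb-b1 and 1 time in Hba-a1. GATAA, found in 26.5%, was present 1 time in Hba-a1. The Epb42 window held none of the 4 strings, which says only that these letters are not in this window. A match is a description of the sequence and not evidence of a binding site.

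Other transcript clusters of the globin loci are a further reading of the same RNA. Hba-a3 had log2 signals of 7.57, 9.22 and 8.04 in SJG arrays 1 to 3, against 6.39, 7.63 and 7.88 in diabetic arrays 1 to 3. SJG replicate 1 lay below diabetic replicates 2 and 3, so the groups overlapped. Hba-a3 rose by 0.98 on the log2 scale (standard error 0.437, limma adjusted p = 0.772). Over the 6 arrays it had an r of 0.97 with Hbb-b1 and 0.86 with Hba-a1.

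A transcript cluster annotated jointly to Hbb, Hbbl1 and Hbb-bs had log2 signals of 9.32, 10.62 and 9.57 in SJG arrays 1 to 3, against 6.32, 7.89 and 8.90 in diabetic arrays 1 to 3. Its log2 difference of 2.13 was larger than that of Hbb-b1. Another, annotated to Hbb-bs and Hbbl1, had 7.06, 8.25 and 7.36 in SJG arrays 1 to 3, against 4.03, 6.75 and 6.70 in diabetic arrays 1 to 3, a difference of 1.73. Both were apart between the groups, and diabetic replicate 1 was the lowest array in each. A dim cluster annotated to Hba-a1 and Hba-a2 had 4.45, 4.41 and 4.67 with SJG and 3.52, 3.58 and 4.24 in the diabetic kidneys, a difference of 0.73. No single gene can be named from these clusters, and they were not part of the tested genes.

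The embryonic and minor chains were dim, and none was called. Log2 differences for Hbz, Hbq1, Hbg1, Hbe2 and Hbe1 ranged between -0.07 for Hbe1 and 0.21 for Hbz, and the groups overlapped for all 5. A cluster annotated to Hbq1b and Hbq1 had -0.11. Ahsp, whose protein is a chaperone of free alpha chains in red cell precursors, had 4.01, 5.06 and 4.41 in SJG arrays 1 to 3, against 3.65, 3.96 and 3.98 in diabetic arrays 1 to 3. Ahsp rose by 0.63 (standard error 0.251, limma adjusted p = 0.772), with groups 0.032 apart. Of the 9 measured genes of the haemoglobin list, 4 were higher, none was lower and 5 were not called. Of all genes 0.991% were higher and 2.12% lower. The median log2 difference of the list was 0.21 against 0.00 for all genes. The 4 include Hba-a1 and Hbb-b1, which this contrast chose.

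**Figure D2:**
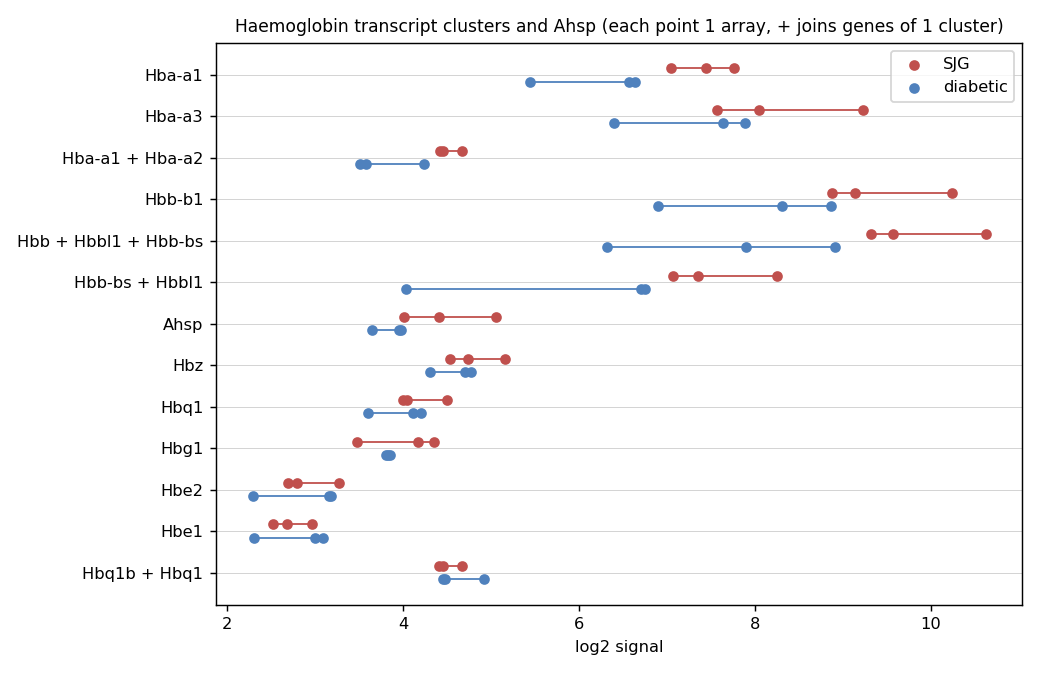
Log2 signal of transcript clusters of the globin genes and of Ahsp, with 1 point per array, SJG above diabetic in each row, and lines over the range of a group. The adult alpha and beta clusters had SJG minus diabetic differences of 0.73 to 2.13. The groups overlap for Hba-a3 and for the embryonic and minor chains.

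The genes of the red cell membrane gave no call. Of 16 measured, 0 passed the limits in limma in either direction, against 3.11% of all genes. A list of this size can hold 0 at that share. Only 1, Tspan33 at 0.45, was below 0.05 before adjustment, while 12 were positive and the median log2 difference was 0.10. Kel, a blood group protein, and Tmod1, which caps the actin filaments of the skeleton, had every SJG array above every diabetic array. So had 5.2% of all genes. Their differences were 0.25 and 0.13 (limma adjusted p = 0.8 and adjusted p = 0.89). Slc4a1 encodes the anion exchanger that Epb42 binds, and it is also expressed in acid-secreting cells of the collecting duct. Its log2 signals were 7.92, 7.82 and 7.69 in SJG arrays 1 to 3, against 8.37, 7.18 and 8.14 in diabetic arrays 1 to 3, a difference of -0.09 (standard error 0.274, limma adjusted p = 0.960). The skeleton genes Ank1 and Sptb, which encode ankyrin and beta spectrin, had 0.09 and 0.11. Epb41 and Dmtn, which encode the skeleton proteins 4.1 and dematin and were among the brightest of the list, had -0.33 and 0.05. By mean signal 11 of the 16 genes were below the median gene.

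In the haem synthesis list the median log2 difference was 0.27. Of 12 measured genes none was lower and 1 was higher, against 0.991% of all genes. The gene was Abcb10, a transporter of the inner mitochondrial membrane that is needed for haem production in red cell precursors. Its log2 signals were 7.22, 7.59 and 6.88 in SJG arrays 1 to 3, against 6.83, 6.37 and 6.62 in diabetic arrays 1 to 3, a rise of 0.63 (standard error 0.216, limma adjusted p = 0.747). Slc25a38, the glycine carrier that feeds the first step of haem synthesis, had 0.46 and missed only the limit on the fold change. Slc25a39, a mitochondrial carrier, had 0.42 with overlapping groups. The enzymes differed in sign, with Alad, the second step, at 0.34, Uros at 0.31, Ppox at 0.19, Urod at -0.004, Fech, which inserts the iron, at -0.18 and Cpox at -0.40. None of these enzymes passed. For Uros and Ppox every SJG array lay above every diabetic array, as for 5.2% of all genes. The groups overlapped for the other enzymes.

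The regulators of red cell precursors showed no call. Of 10 measured, 0 passed the limits in limma, against 3.11% of all genes, a share at which so short a list can hold 0. Before adjustment 0 were below 0.05, and their median log2 difference was 0.05. Gata1 and Klf1, the transcription factors that switch on globin genes, had 0.15 and 0.31 (limma adjusted p = 0.890 and adjusted p = 0.778), both with mean signals below the median gene. Epor, the erythropoietin receptor gene, had 0.08.

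Of 18 measured red cell enzymes and genes of late precursors, 2 were higher, against 0.991% of all genes, and none was lower. The median log2 difference was 0.08. Hemgn, a nuclear protein of blood cell precursors, had log2 signals of 4.91, 5.71 and 4.89 in SJG arrays 1 to 3, against 4.27, 4.58 and 4.19 in diabetic arrays 1 to 3. The groups did not overlap, and the rise of 0.82 (standard error 0.238, limma adjusted p = 0.746) was the only one of the 7 that passed in the equal-variance comparison too. Hagh, a glyoxalase enzyme of many tissues, had 9.09, 9.29 and 9.12 in SJG arrays 1 to 3, against 8.28, 8.29 and 9.03 in diabetic arrays 1 to 3. The groups were apart, and Hagh rose by 0.63 (standard error 0.221, limma adjusted p = 0.751). Tfrc, the transferrin receptor gene, had 0.50 with overlapping groups and missed only the limit on the fold change. The brightest genes of the list, Cat (catalase) and Car2 (carbonic anhydrase 2), which kidney cells also express strongly, had -0.05 and 0.05. Of the other bright genes, Prdx2 (peroxiredoxin 2) had 0.04, Pklr (the pyruvate kinase of liver and red cells) 0.14 and Bnip3l, which clears mitochondria in maturing red cells, -0.37.

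**Figure D3:**
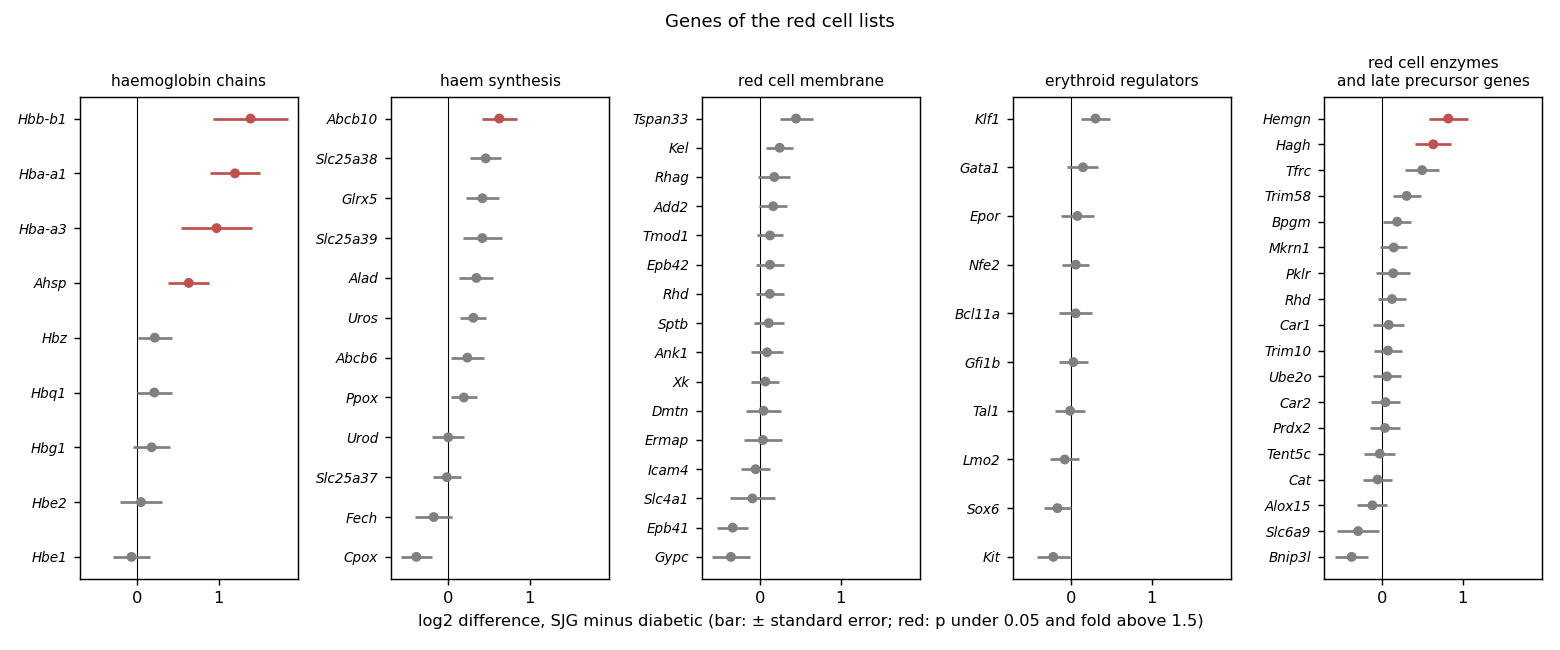
Log2 difference, SJG minus diabetic, with its standard error for the measured genes of the 5 red cell lists. Red points passed both limits, which held for 7 genes and for 3.11% of all genes. Of the 7, 4 were in the haemoglobin list, among them Hba-a1 and Hbb-b1, which this contrast chose. The membrane and regulator lists had 0.

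Over these 5 lists together, 7 of 64 measured genes were higher and 0 were lower. Without the measured members this was 5 of 61, or 8.20%, against 0.991% of all genes, with a median log2 difference of 0.09. The lists were written with earlier results of these arrays known, so the counts describe the lists and do not test them. None of the 64 genes, 0 in limma and 0 in the equal-variance comparison, passed with adjustment over the whole table, and 10 were below 0.05 in limma before it.

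These differences leaned on single arrays. Without diabetic replicate 1 the log2 difference of Hbb-b1 was 0.83 and that of Hba-a1 0.82. Without SJG replicate 2 they were 0.98 and 1.03. Hba-a1 stayed past the limits in each of the 6 fits with 1 array left out, and Hbb-b1 failed in the 2 just named. This contrast chose both genes, so these fits describe the weight of single arrays and are no further support. Hba-a3 had 0.50 without SJG replicate 2 and 0.52 without diabetic replicate 1, and failed without SJG replicate 3 too. Ahsp had 0.35 without SJG replicate 2, and Hemgn 0.55. Of the 7 genes, only Hba-a1 passed without SJG replicate 2. Hba-a1, Abcb10 and Hemgn passed without diabetic replicate 1, and Abcb10 and Hagh failed without diabetic replicate 2. The sign stayed positive for all 7 genes and for Epb42, which ranged between 0.03 and 0.24.

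**Figure D4:**
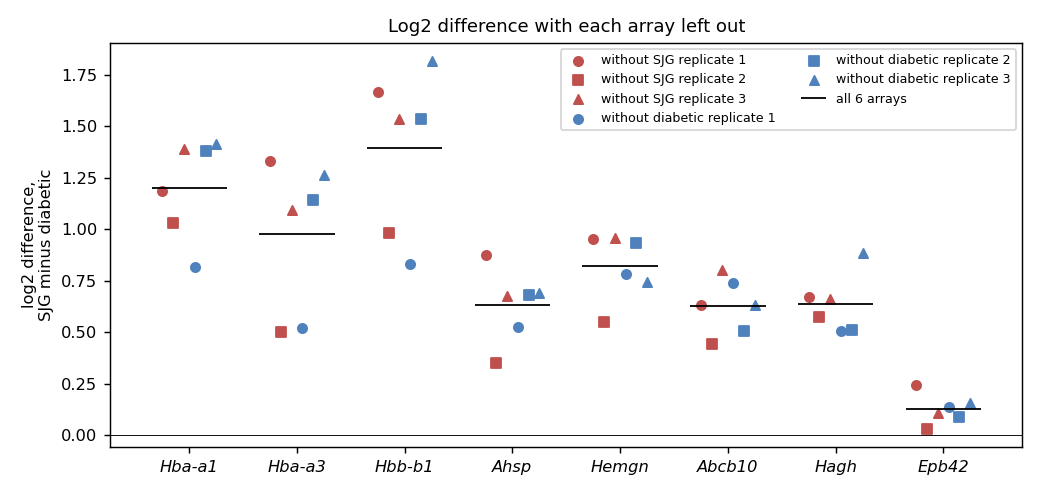
Log2 difference, SJG minus diabetic, of the 7 red cell genes that passed and of Epb42, with each array left out in turn (points) and with all 6 arrays (black lines). The points of Hbb-b1 spread between 0.83 and 1.82, lowest without diabetic replicate 1 or SJG replicate 2.

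Genes that bind or break down free haemoglobin and haem were lower or did not pass. Of 15 measured, 2 were lower, against 2.12% of all genes, and none was higher, with a median of -0.13. Both were named by the study from these arrays and are not independent evidence of a direction. Hmox1, the enzyme that opens the haem ring, had log2 signals of 5.07, 4.87 and 5.11 in SJG arrays 1 to 3, against 5.84, 6.17 and 5.87 in diabetic arrays 1 to 3. It fell by 0.94 (standard error 0.175, limma adjusted p = 0.606). Hpx, the plasma protein hemopexin that carries haem, had 4.19, 4.52 and 4.39 in SJG arrays 1 to 3, against 4.97, 5.25 and 4.68 in diabetic arrays 1 to 3, and fell by 0.60 (standard error 0.196, limma adjusted p = 0.746). The groups did not overlap for either gene. Hp, the plasma protein haptoglobin that captures free haemoglobin, and Cd163, its receptor on macrophages, had 0.03 and -0.07, with overlapping groups.

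Epo, which encodes erythropoietin, had log2 signals of 4.27, 4.41 and 4.31 in SJG arrays 1 to 3, against 4.09, 4.21 and 4.19 in diabetic arrays 1 to 3. Every SJG array lay above every diabetic array, as for 5.2% of all genes. The difference of 0.16 had a standard error of 0.161 and did not pass (limma adjusted p = 0.852). Its mean signal was at the 25.9th percentile. Of 14 measured genes of erythropoietin and iron supply, 1 was lower, against 2.12% of all genes, and none was higher. It was Bmp6, which encodes the signal that induces hepcidin in the liver, with 5.88, 5.41 and 5.83 in SJG arrays 1 to 3, against 6.12, 7.09 and 6.38 in diabetic arrays 1 to 3, a fall of 0.82 (standard error 0.252, limma adjusted p = 0.746). Hamp, the gene of hepcidin itself, had 0.12.

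Markers of other blood cells were read beside the haemoglobin genes. Of 8 platelet genes 0 passed in limma, against 3.11% of all genes, and 0 were below 0.05 before adjustment. Yet 7 of the 8 were positive, and their median log2 difference was 0.23. The medians were 0.21 for the haemoglobin list and 0.10 for the red cell membrane list. The list means on single arrays were 4.56 to 5.03 with SJG and 4.40 to 4.69 in the diabetic kidneys. SJG replicate 2 was the highest array of the platelet list, as it was of Hba-a1 and Hbb-b1. By mean signal 6 of the 8 platelet genes were below the median gene. Over all genes SJG replicate 2 had the highest lower quartile, 4.30, and the lowest upper quartile, 6.90, of the 6 arrays. Whether this raised dim genes on that array, Ahsp and Hemgn among them, was not tested. Of 13 neutrophil genes 0 passed in limma, against 3.11% of all genes, and 1 was below 0.05 before adjustment. Their list means were 3.91 to 4.15 with SJG and 3.92 to 4.17 in the diabetic kidneys. All 13 were below the median gene by mean signal. Of 14 lymphocyte genes 1 was lower, against 2.12% of all genes. It was Cd4, which rat macrophages also express, lower by 1.24 (limma adjusted p = 0.746). The list means were 4.52 to 4.69 with SJG and 4.36 to 5.03 in the diabetic kidneys. The median log2 difference was -0.03 for the neutrophil list and -0.11 for the lymphocyte list.

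Of 15 monocyte and macrophage genes 8 were lower, against 2.12% of all genes, and none was higher. The median log2 difference was -0.68, and 0 of the 15 were positive. The list means were 5.87 to 6.14 with SJG and 6.08 to 7.35 in the diabetic kidneys. Lyz2, Ptprc, Mrc1 and Cd14, genes of macrophages and other leukocytes, had log2 differences of -1.25, -1.02, -1.002 and -0.94 and were all called lower. The mean of this list on diabetic replicate 3, 6.08, fell between the SJG arrays, and that array was also the diabetic array with the highest Hba-a1 and Hbb-b1. Of 10 endothelial genes 0 passed in limma, against 3.11% of all genes, and 0 were below 0.05 before adjustment. Their median log2 difference was -0.17, with list means of 7.13 to 7.21 with SJG and 7.23 to 7.44 in the diabetic kidneys. The kidney was present as labelled. The 12 measured kidney cortex markers had mean signals at the 69.1st percentile or higher, with list means of 10.07 to 10.23 with SJG and 9.90 to 10.11 in the diabetic kidneys. Of them 0 passed in limma, against 3.11% of all genes, and 1 was below 0.05 before adjustment. Their median log2 difference was 0.08. The part of blood content in the haemoglobin values was not tested.

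**Figure D5:**
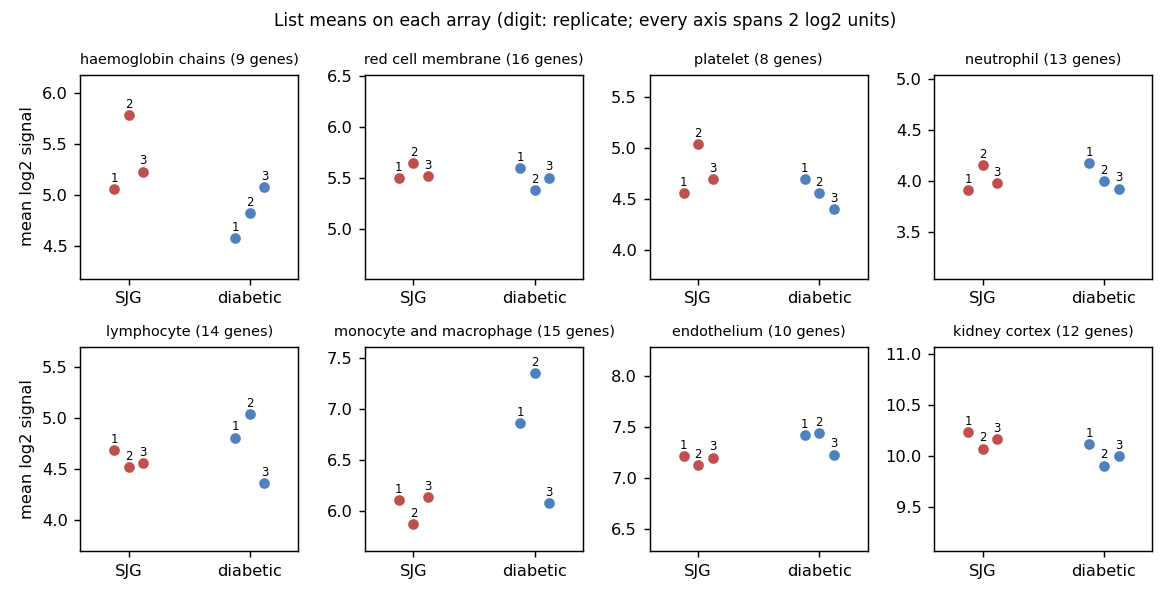
Mean log2 signal of the measured genes of 8 lists on each array, SJG left and diabetic right, with the replicate number at each point and an axis of 2 log2 units in every panel. The haemoglobin mean ran over 5.06 to 5.79 with SJG and 4.58 to 5.08 in the diabetic kidneys. The red cell membrane means were within 5.50 to 5.65 and 5.38 to 5.60. The haemoglobin list includes Hba-a1 and Hbb-b1 and the membrane list Epb42, which this contrast chose.

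Many genes shared the pattern over so few arrays. With the members themselves left out and an r of at least 0.9, 124 genes resembled Hba-a1, 154 resembled Hbb-b1 and 408 resembled Epb42. Of the red cell lists these held 1 gene for Hba-a1 (Ppox, r 0.92), 1 for Hbb-b1 (Hba-a3, r 0.97) and 3 for Epb42 (Rhd at 0.945, Gata1 at 0.943 and Hbg1 at 0.929). Members, provisional symbols (LOC or RGD) and olfactory receptors were then left out. Of the remaining genes, the 10 with the highest mean r with the 3 measured members were Adcy5, Hmga1l1, Cxhxorf66, Ccdc12, Bpifb6, Lemd2, Lipf, Slc25a52, Serpini1 and Tfeb. Their mean r was 0.859 to 0.869 over the 6 arrays, and their log2 differences were 0.19 to 1.08. No gene of the red cell lists was among them, though Hba-a3 and Ahsp had a mean r of 0.849 and 0.845.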

How the data were processed

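Affymetrix whole-transcript rat arrays measured kidney RNA, 3 SJG and 3 diabetic. The signals that the authors deposited are on a log scale that was read as log2, since the highest value, 13.7, is under 16, the log2 of a full 16-bit reading. The sources used here do not give the background correction or normalization. The values entered the analysis unchanged. All 6 value columns were used. Array medians over the 36685 transcript clusters were 4.68 to 4.88, and pairs of arrays correlated at 0.952 to 0.978. Precision is limited by having 3 arrays a group.

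In the annotation, 18511 clusters had 1 gene, of which 18394 matched the RefSeq genes of GRCr8 by gene number and took their symbols. The 575 with several genes entered no test, and 17599 had no gene. The brightest cluster stood for each of 18166 genes, 291 of which had several.

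Groups were compared with limma 3.58.1 in R 4.3.3 (lmFit, eBayes, SJG minus diabetic, prior degrees of freedom 6.94), with Benjamini-Hochberg adjustment over all genes. The limits on p and fold change follow the study, which names no test for its arrays. All printed p-values are limma's. The equal-variance comparison used ordinary t-test p-values, which served only for its calls. The code was tested on simulated data. The members and gene lists were chosen with earlier results of these data known. Text names the members, red cell genes that passed, the brightest of those that did not, up to 4 that passed per other list, Epo, Hp, Hpx, Hmox1, Cd163 and the 10 most similar genes. Other genes were named after their values were seen. Alternatives were quantile normalization, median centring, trend and robust variance, an equal-variance comparison per gene, the mean of a gene's clusters, genes above the median signal, replicate number as a block, array weights, other fold limits and each array left out. Start site windows were aligned globally with Biopython 1.88.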

Additional observations from a re-analysis of the deposited data

How the results depend on the processing

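The log2 differences of Hba-a1, Hbb-b1 and Epb42 kept their sign and moved by less than the larger of the SDs of both groups under each alternative run, except that Epb42, below the median signal, had no value among the brighter genes. With an array left out they were 0.82 to 1.41 for Hba-a1, 0.83 to 1.82 for Hbb-b1 and 0.03 to 0.24 for Epb42. The 7 higher red cell genes numbered 1 to 10 with an array left out, 1 with the equal-variance comparison (Hemgn), 4 of 34 among genes above the median signal, which tests fewer genes, and 2 above a fold change of 2 (Hba-a1 and Hbb-b1). No alternative gave a lower red cell gene. Of all genes, 180 higher and 385 lower became 76 and 77 with the equal-variance comparison, 90 and 236 above the median signal, 479 and 654 at a fold change above 1.2, and 25 and 81 above 2. With an array left out 170 to 435 were higher and 223 to 1014 lower. Both counts were highest without diabetic replicate 3, where 166 genes also passed an adjusted p of 0.05. The cause was not tested. Over all genes the deviations of same-numbered arrays correlated at -0.0244, -0.2902 and -0.0013. This gives no sign that the replicate numbers pair the arrays, but so few arrays cannot exclude it. With the replicate number as a block, 191 genes were higher and 443 lower, and 7 red cell genes were higher. The standard errors were then 0.309 for Hbb-b1, 0.277 for Hba-a1 and 0.208 for Epb42, against 0.463, 0.308 and 0.176 without it. A dim signal, as for Epb42, Ahsp, Hemgn and Epo, is close to a background that is not known here.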
